A study of Mus musculus with 28 samples.

Results

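Arc amacrine cells are inhibitory interneurons of the mouse retina, sorted here by the EGFP that an Arc transgene makes in them. The question was how their RNA differed between the end and the beginning of the first postnatal week. The later group held 4 arrays, both arrays of P6 and those of P7 and P8, and the earlier group held the arrays of P1, P2 and P3. The 7 arrays were chosen from the sample labels alone, out of 28 in the series, of which 22 were of Arc and 6 of starburst amacrine cells.

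All 7 arrays came from mice of the line Tg(Arc-EGFP)194Gsat/Mmcd, of either 6, 7 or 8 days or 1, 2 or 3 days of age, with no treatment. The labels give a mixed background for all of them: FVB/N-Swiss Webster hybrids were crossed to C57BL/6J and the F2 was taken. Those hybrids carry a recessive mutation that causes photoreceptor degeneration, and the labels do not say which F2 mice were affected. Each sample was 200 cells from 1 retina, sorted after 15 min of papain dissociation. The labels do not say whether the transgene marks 1 amacrine type or several. The starburst arrays set beside them held 3 samples of P18 and 3 of P3.

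Amacrine cells are born before and shortly after birth, leave the progenitor state, settle in the inner nuclear layer and send neurites into the inner plexiform layer. There they form inhibitory synapses that release GABA or glycine onto bipolar, ganglion and other amacrine cells. In mouse the first postnatal week is the time when the sublayers of this plexus form, before bipolar cells make most of their ribbon synapses and before the eyes open.

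Values are log2 expression, on which a difference of 1 is 2-fold. The base of the logarithm is not given in the sources used here and was taken from the usual output of RMA, the method the labels name. The series text speaks of biological triplicates, but the table holds 1 array for each of these days and 2 for P6. Whether an array value stands for 1 sample or for a mean of several is therefore unknown. Neighbouring days served as replicates, so each group's SD holds any change from day to day, and p-values measure the spread between these arrays only. The batch entry is "A and B" for each of the 7, with a number added for both P6 arrays, and its meaning is not given. As a mark of background, 95 in 100 of the 708 measured olfactory receptor genes lay at or below 3.58 at P6 to P8 and 3.66 at P1 to P3, a set chosen after its values were seen. Where a group mean lay below that, the difference is best read as a lower limit. Besides genes marked below, this holds at P1 to P3 for Inpp4b, Cntn4, Slc4a10, Ndst3, Grik1, Lrrc4c, Epha7, Chrm2 and Aldoc, among others. At P6 to P8 it holds for St6gal1, Chd7, Prox1, Neurod4, Ebf3, H2ax and Egr1, among others.

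Across all 13617 genes the 4 arrays of P6 to P8 correlated with each other at r between 0.974 and 0.978, and the 3 arrays of P1 to P3 at r between 0.952 and 0.967. Array medians of the 7 ran between 3.50 and 3.55. Where an array was compared with group means, it was left out of its own group's mean. The P3 array lay closer to the mean of P6 to P8 (r = 0.982) than to that of P1 and P2 (r = 0.969). The second is a mean of fewer arrays. The first P6 array had r = 0.982 with the mean of its group and r = 0.981 with that of P1 to P3. Arrays of P4 and P5, in neither group, correlated with the P6 to P8 mean at 0.986 and 0.985 and with the P1 to P3 mean at 0.975 and 0.974. Among the 7, P1 stood farthest from the mean of P6 to P8 (r = 0.959), so differences that P1 moved by over 1.5 times are also given without it.

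**Figure D1:**
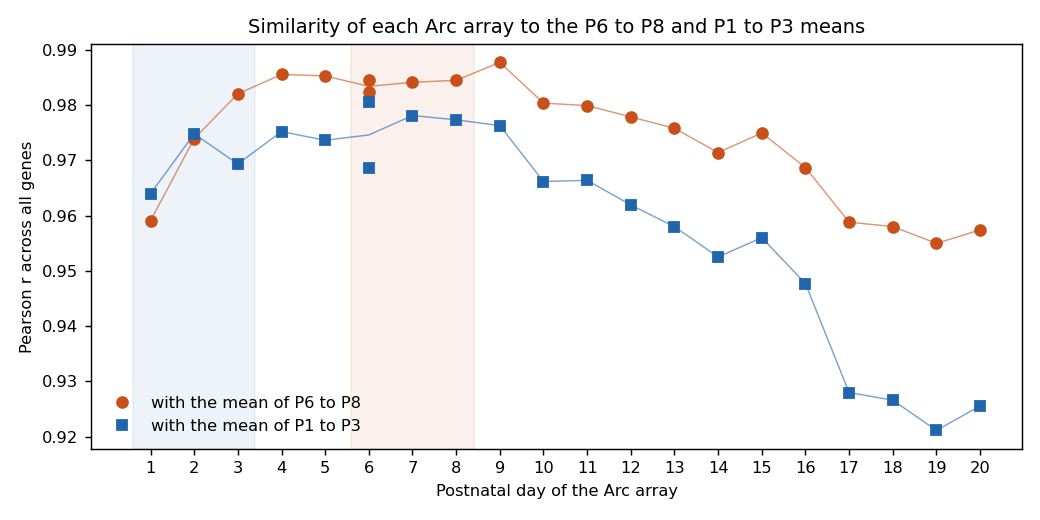
Each Arc array's Pearson r, over 13617 genes and by postnatal day, with the mean of P6 to P8 (circles) and of P1 to P3 (squares). Shaded bands mark the days of the comparison, lines join the daily means, and an array of a group was left out of that group's mean. The circle lies above the square from P3 on, and at P6 the lower circle (0.982) nearly touches the higher square (0.981).

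The cells matched their label as amacrine cells at both ages. Pax6, a transcription factor of amacrine cells, measured between 9.07 and 9.20 at P6 to P8 and between 9.16 and 9.46 at P1 to P3. Tfap2b, another one, measured between 9.46 and 9.74 at P6 to P8 and between 8.89 and 9.99 at P1 to P3. Gad2, a GABA-making enzyme, measured between 5.72 and 6.75 at P6 to P8 and between 6.23 and 7.70 at P1 to P3. Slc6a9, the glycine transporter of glycinergic cells, ranged from 4.14 to 4.61 at P6 to P8 and from 4.10 to 4.79 at P1 to P3. Chat, which makes the acetylcholine of starburst cells, stayed below background, at 2.76 to 3.01 at P6 to P8 and 2.75 to 3.04 at P1 to P3. The rod transducin gene Gnat1 ranged from 2.66 to 3.64 at P6 to P8 and from 3.01 to 3.40 at P1 to P3. The mean level of 11 pan-amacrine markers was 7.06 to 7.22 at P6 to P8 and at most 7.17 at P1 to P3.

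Arc, the gene whose promoter drives EGFP, measured 5.89, 6.15, 5.86 and 5.67 in the arrays of P6 (both), P7 and P8, against 5.33, 5.93 and 5.60 at P1, P2 and P3. The groups overlapped, and the difference was 0.27 ± 0.18 (SE; limma adjusted p = 0.687), or 0.13 without P1.

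No gene passed the test over the 7 arrays at an adjusted p of 0.05, the lowest being 0.0583. The test was limma's moderated linear model, two-sided, with Benjamini-Hochberg adjustment over all genes. At an unadjusted p under 0.05, 583 genes (4.28%) were higher and 681 (5%) lower at P6 to P8. The 4 later arrays lay wholly above the 3 earlier ones for 483 genes (3.55%) and wholly below them for 746 (5.48%). Without the P3 array 4 genes were called, and without the second P6 array 1. Single genes below are therefore given as values. The change was at least 2-fold with no overlap for 25 genes higher (0.184%) and 11 lower (0.0808%).

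The 2 genes with the lowest adjusted p differed in opposite directions, and the bases before their transcription starts are shown because the test came closest to a call there. Crabp1 binds retinoic acid inside the cell, and Pdgfd is a secreted platelet-derived growth factor. The 250 bases before each start come from RefSeq on GRCm38.p6, both on the plus strand, Crabp1 at chr9:54764498-54764747 and Pdgfd at chr9:6168236-6168485. Capitals mark matches, on either strand, to 5 short motifs: the TATA box TATAAA, the GC box GGGCGG, the cAMP response element TGACGTCA, the E-box CAGCTG and the CCAAT box CCAAT.
Crabp1: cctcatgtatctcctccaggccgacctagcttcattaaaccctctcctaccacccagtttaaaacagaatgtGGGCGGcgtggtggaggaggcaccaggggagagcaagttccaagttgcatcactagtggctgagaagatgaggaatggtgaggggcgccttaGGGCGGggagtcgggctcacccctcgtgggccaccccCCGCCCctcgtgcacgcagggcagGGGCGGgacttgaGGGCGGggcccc
Pdgfd: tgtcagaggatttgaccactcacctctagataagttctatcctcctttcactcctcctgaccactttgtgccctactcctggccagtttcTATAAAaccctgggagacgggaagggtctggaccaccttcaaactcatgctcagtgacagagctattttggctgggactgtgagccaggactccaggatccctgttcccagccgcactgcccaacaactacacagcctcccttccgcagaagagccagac
The Crabp1 window, with 63.6% G and C, held the GC box and none of the other motifs, and 49.9% of the windows of 10883 measured genes held it. The Pdgfd window, with 53.6% G and C, held the TATA box alone, which 10.8% of those windows held. These matches describe letters and not binding.

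Crabp1 (transcript cluster 6989222) measured 7.85, 8.12, 8.18 and 8.05 in the arrays of P6 (both), P7 and P8, against 9.47, 9.72 and 9.23 at P1, P2 and P3. All later arrays lay below all earlier ones, by 1.05 at the closest. The means were 8.05 ± 0.14 (SD, n = 4) at P6 to P8 and 9.47 ± 0.25 (SD, n = 3) at P1 to P3, a difference of -1.43 ± 0.15 (SE; limma adjusted p = 0.0583). Its P4 array, at 9.61, stood with the earlier days, and its P5 array, at 8.15, with the later ones. Pdgfd (6986677) measured 4.32, 4.43, 4.70 and 4.12 at P6 (both), P7 and P8, against 2.84, 2.61 and 3.13 at P1, P2 and P3. The groups did not overlap, with means of 4.39 ± 0.24 (SD, n = 4) at P6 to P8 and 2.86 ± 0.26 (SD, n = 3) at P1 to P3, where it was below background. The difference of 1.53 ± 0.17 (SE; limma adjusted p = 0.0583) is therefore a lower limit. Its arrays of P4 and P5 were between the groups, at 3.30 and 3.81.

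Testing the same groups with a spread estimated over all 21 Arc arrays of P1 to P20 called 124 genes, 74 higher (0.543%) and 50 lower (0.367%), of which 119 had groups without overlap. This count depended on single arrays. It was 12 without P1, 24 without P2, 507 without P3, 2 without the second P6 array, 81 without P7, 15 without P8 and 183 without the first P6 array. The 2 genes called in all of these fits among those named here were Cnn3 and Cntn4. Of the other genes named as called with the shared spread, each lost its call when at least 1 of these arrays was left out.

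Cnn3 (6900938), the actin-binding calponin 3, measured 5.39, 4.92, 5.09 and 5.13 at P6 (both), P7 and P8, against 7.22, 6.44 and 6.70 at P1, P2 and P3. The later arrays were all below the earlier ones, with -1.66 ± 0.20 (SE; limma adjusted p = 0.0799 over 7 arrays and 0.0063 with the shared spread). Cntn4 (6948797), the adhesion protein contactin 4, measured 4.17, 5.25, 4.52 and 4.71 at P6 (both), P7 and P8, against 3.17, 3.08 and 3.57 at P1, P2 and P3. The later arrays were all above the earlier ones, with 1.39 ± 0.24 (SE; limma adjusted p = 0.29 over 7 arrays and 0.0063 with the shared spread). The starburst change of Cnn3 between P18 and P3 was -2.27, while Cntn4 was below background there at both ages.

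The naming rule took 15 genes in each direction by unadjusted p, from those without overlap and with a mean above that of the median gene. Sparcl1, a secreted matricellular protein that acts on synapse formation, measured 5.28, 6.20, 5.50 and 5.87 at P6 (both), P7 and P8, against 4.12, 4.26 and 4.56 at P1, P2 and P3. Every later array was above every earlier one, and the difference was 1.40 ± 0.22 (SE; limma adjusted p = 0.212). Hpgd, a prostaglandin-degrading dehydrogenase, differed by 1.42 ± 0.23 (SE) and lay below background at P1 to P3, with a mean of 2.98. P3h2, a collagen prolyl hydroxylase, differed by 1.37, Sphkap, an anchoring protein for protein kinase A, by 1.39, and Galnt13, which starts O-linked sugar chains, by 1.15. Mdga2, an adhesion protein that binds neuroligins, differed by 0.88. Ndst3, a heparan sulfate sulfotransferase, also differed by 0.88.

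A further 6 genes were named by the same rule. Inpp4b, a phosphoinositide phosphatase, measured 4.01, 4.29, 4.26 and 4.01 at P6 (both), P7 and P8, against 3.22, 2.90 and 3.25 at P1, P2 and P3. Its groups were 0.76 apart at their closest, and it differed by 1.02 ± 0.13 (SE; limma adjusted p = 0.112). Slc4a10, a bicarbonate transporter, differed by 1.06, Glrb, the anchoring subunit of glycine receptors, by 0.83, and Adarb1, an enzyme that edits RNAs of glutamate receptors, by 0.78. Faim2, an inhibitor of Fas-driven death, differed by 0.78 and Vps11, a subunit of vesicle tethering complexes, by 0.61. With Pdgfd and Cntn4 these make the 15. Of them 12 were called with the shared spread, where 0.543% of all genes were called higher. That fit tests the same difference by which the 15 were chosen, so the 12 calls are no separate evidence.

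The 15 lower at P6 to P8 follow. Rnd3, a small GTPase that loosens actin, measured 6.06, 5.58, 5.17 and 5.72 at P6 (both), P7 and P8, against 7.15, 6.73 and 6.91 at P1, P2 and P3. The groups did not overlap, and the difference was -1.30 ± 0.21 (SE; limma adjusted p = 0.22). Dpysl4, a collapsin response mediator, differed by -0.82, Ctxn1, a small neuronal membrane protein, by -0.81, and Ston2, an adaptor for vesicle retrieval, by -1.08. St6gal1, which adds sialic acid to proteins, differed by -1.13 and measured 3.52 ± 0.37 (SD, n = 4) at P6 to P8, against 4.65 ± 0.33 (SD, n = 3) at P1 to P3. Ncan, the chondroitin sulfate proteoglycan neurocan, measured 5.40, 4.80, 5.20 and 4.99 at P6 (both), P7 and P8, against 6.01, 5.88 and 5.95 at P1, P2 and P3. Its earlier arrays differed by 0.12 at most, and its change was -0.85 ± 0.16 (SE; limma adjusted p = 0.297).

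Dusp4, a phosphatase of MAP kinases, differed by -1.03, Tox, a DNA-binding protein, by -0.66, and Mex3d, an RNA-binding protein, by -0.72. Acly, which makes acetyl-CoA for lipid synthesis, differed by -0.67, with all later arrays at or below 6.08 and all earlier ones at or above 6.60. Sfi1, a centrosomal protein, differed by -0.64, Scnm1, a splicing factor, by -0.60, and Imp3, a protein of ribosome assembly, by -0.54. With Crabp1 and Cnn3 these make the 15. Of them 9 were called with the shared spread, where 0.367% of all genes were called lower, and these too were chosen by the same difference.

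**Figure D2:**
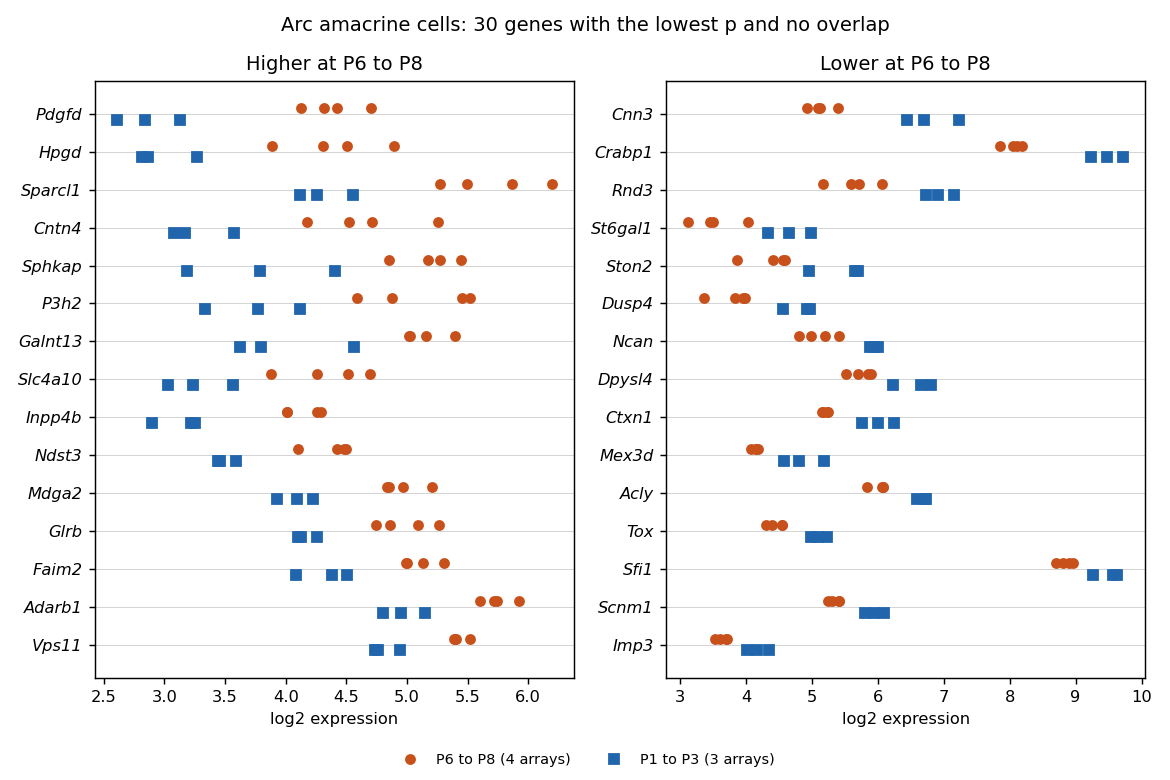
Log2 expression of the 30 named genes in each array, with circles for the 4 arrays of P6 to P8 and squares for the 3 of P1 to P3. The left panel holds genes higher and the right panel genes lower at P6 to P8, and the groups do not overlap because the rule required it.

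Over all genes, 46 were at least 2-fold higher and 19 at least 2-fold lower with all 7 arrays. The counts were 21 and 11 without P1, 32 and 9 without the second P6 array, and 107 and 62 without P3. Of the 36 genes that differed at least 2-fold with no overlap, 17 still differed at least 2-fold without P1 and 24 without the second P6 array. Without the other arrays the number was between 31 and 36. The median size of their difference was 1.27 with all arrays and 0.987 without P1. Gria3 illustrates this, an AMPA receptor subunit that measured 7.62, 8.21, 7.72 and 7.77 at P6 (both), P7 and P8, against 4.998, 7.01 and 7.45 at P1, P2 and P3. P1 stood well below P2 and P3, and the difference of 1.35 ± 0.50 (SE) became 0.60 without it.

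Genes of the synapse were the gene group with the highest median. Of 35 measured genes of synaptic vesicles and release, 10 had an unadjusted p under 0.05 with a higher level, where 4.28% of all genes did. None had it with a lower level, and 2 were called with the shared spread, where 0.543% of all genes were called higher. The median change was 0.36 over these genes, against -0.03 over all genes, and 0.17 without P1. Snap25, a membrane fusion protein of the synapse, measured 8.61, 9.10, 8.62 and 8.77 at P6 (both), P7 and P8, against 7.32, 7.80 and 8.37 at P1, P2 and P3. The earlier arrays differed from each other by up to 1.05 and all lay below the later ones, with a difference of 0.94 ± 0.24 (SE; limma adjusted p = 0.327 over 7 arrays and 0.0298 with the shared spread). Syt4, a vesicle synaptotagmin, differed by 1.36 ± 0.42 (SE) and by 0.80 without P1. Synpr, a vesicle membrane protein, differed by 0.91 and Nsf, the ATPase that takes fusion complexes apart, by 0.85.

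Ion channel genes were less uniform. Of 43 measured voltage-gated channel genes, 7 had an unadjusted p under 0.05 with a higher level (4.28% of all genes did) and none with a lower one (5%), with a median change of 0.21, and 0.06 without P1. Kcnab1, a potassium channel beta subunit, differed by 1.43 ± 0.44 (SE) and by 0.87 without P1. Kcnn2, a calcium-activated potassium channel, measured 4.81, 5.45, 4.94 and 4.79 at P6 (both), P7 and P8, against 3.41, 3.91 and 4.72 at P1, P2 and P3. The P3 array nearly reached the lowest later array, and the difference was 0.98 ± 0.29 (SE; limma adjusted p = 0.0464 with the shared spread). Cacnb2, a calcium channel beta subunit, differed by 0.93, and by 0.54 without P1, and was called with the shared spread too. Kcnma1, the large-conductance calcium-activated channel, differed by 0.85 and by 0.46 without P1.

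In the inhibitory system, 5 of 23 measured genes of GABA and glycine handling had an unadjusted p under 0.05 with a higher level. None had it with a lower one, and over all genes the shares were 4.28% higher and 5% lower. Gad1, the GABA-making enzyme, measured 7.40, 8.32, 7.80 and 8.17 at P6 (both), P7 and P8, against 6.14, 7.01 and 7.27 at P1, P2 and P3. The closest arrays were only 0.13 apart, and the difference of 1.12 ± 0.30 (SE) had a limma adjusted p of 0.371 over 7 arrays and 0.0372 with the shared spread. Slc32a1, the vesicular transporter for GABA and glycine, measured 6.80, 6.95, 6.70 and 6.89 at P6 (both), P7 and P8, against 6.18, 6.51 and 6.52 at P1, P2 and P3. It was singled out after its values were seen, as the partner of Gad1 with no overlap, and differed by 0.43 ± 0.14 (SE). Not all members lay higher. Gad2, the other GABA-making enzyme, had means of 6.24 at P6 to P8 and 6.80 at P1 to P3, with overlapping groups. The median change of the list was 0.12, and 15 of 23 had a change above 0, where 5641 of 13617 genes did. The GABA receptor subunits Gabrb2 and Gabra3 differed by 1.04 and 1.01, each with overlapping groups, and Gabra3 by 0.62 without P1.

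Of 29 measured glutamate receptor genes, 5 had an unadjusted p under 0.05 with a higher level and 1 with a lower one. The shares over all genes were 4.28% and 5%. With the shared spread 3 were called higher and 1 lower, where 0.543% and 0.367% of all genes were. Not all of these are named here, and the 1 called lower is not. The median change of the list was 0.12, and -0.02 without P1. Grik1, a kainate receptor subunit, measured 4.36, 5.13, 4.54 and 4.23 at P6 (both), P7 and P8, against 2.85, 3.29 and 3.85 at P1, P2 and P3. All later arrays lay higher, by 1.23 ± 0.27 (SE; limma adjusted p = 0.0216 with the shared spread). Neto2, an auxiliary subunit of kainate receptors, differed by 0.72. The AMPA receptor subunit Gria4 differed by 0.64, was called with the shared spread and differed by 0.42 without P1. Among 12 cholinergic receptor genes, Chrna3, a nicotinic subunit, differed by -0.92 without overlap. The muscarinic receptors Chrm3 and Chrm2 differed by 0.99 and 0.82.

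Adhesion and secreted proteins split between members. Of 50 measured genes of laminar and synaptic adhesion, 11 had an unadjusted p under 0.05 with a higher level. With a lower level there was 1, where 4.28% of all genes were higher and 5% lower. The median change was 0.02, and 4 genes were called with the shared spread, all higher, where 0.543% of all genes were. They were Cntn4, Cntn1 (another contactin, 1.19), Sdk1 (the sublayer adhesion protein sidekick 1, 0.99, and 0.65 without P1) and Lrrc4c (a netrin-G ligand, 1.53). The groups of Lrrc4c overlapped, with 3.84 at P3 and 3.82 in the first P6 array. Cntn1 measured 5.81, 6.59, 5.58 and 6.15 at P6 (both), P7 and P8, against 4.28, 4.81 and 5.44 at P1, P2 and P3, with the P7 and P3 arrays only 0.13 apart. Of 36 measured matrix and secreted genes, 4 were called higher and 1 lower with the shared spread, where 0.543% and 0.367% of all genes were. Olfm3, a secreted olfactomedin, measured 4.26, 5.75, 5.31 and 4.60 at P6 (both), P7 and P8, against 2.50, 3.36 and 3.50 at P1, P2 and P3. The difference of 1.86 ± 0.37 (SE; limma adjusted p = 0.297 over 7 arrays and 0.0315 with the shared spread) is a lower limit, since the P1 to P3 mean of 3.12 lay below background. Cbln2, a synapse organiser, differed by 1.65 ± 0.73 (SE) and by 0.58 without P1, where it measured 4.35 against 7.18 and 7.93 at P2 and P3.

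Genes of calcium handling and of energy use varied more. Of 24 calcium buffers and sensors, 6 had an unadjusted p under 0.05 with a higher level and 1 with a lower one. Over all genes the shares were 4.28% higher and 5% lower. Vsnl1, the calcium sensor visinin-like 1, measured 6.17, 7.33, 6.18 and 6.18 at P6 (both), P7 and P8, against 3.07, 4.77 and 6.69 at P1, P2 and P3. P3 lay above 3 of the 4 later arrays. Without P1 its difference of 1.62 became 0.73. Pcp4, a calmodulin regulator, differed by 1.64. Ryr2, a calcium release channel, differed by 0.89 and by 0.34 without P1, and Slc8a1, a sodium-calcium exchanger, by 0.72 and by 0.21 without P1. Of 26 genes of glycolysis and the tricarboxylic acid cycle, 4 had an unadjusted p under 0.05 with a higher level and 2 with a lower one. Pfkp, a phosphofructokinase, differed by 0.97 without overlap, and by 0.49 without P1. Aldoc, an aldolase, differed by 0.67, the glucose transporter Slc2a3 by 0.66 and Pdha1, of pyruvate dehydrogenase, by 0.63 (0.39 without P1). The 36 genes of oxidative phosphorylation had a median of -0.03. At an unadjusted p under 0.05, 1 was higher and 1 lower, where 4.28% and 5% of all genes were. They were the complex I subunits Ndufs1, at 0.50, and Ndufa8, at -0.43, both without overlap. Ndufs1 alone was called with the shared spread. In that fit 0.543% of all genes were called higher.

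**Figure D3:**
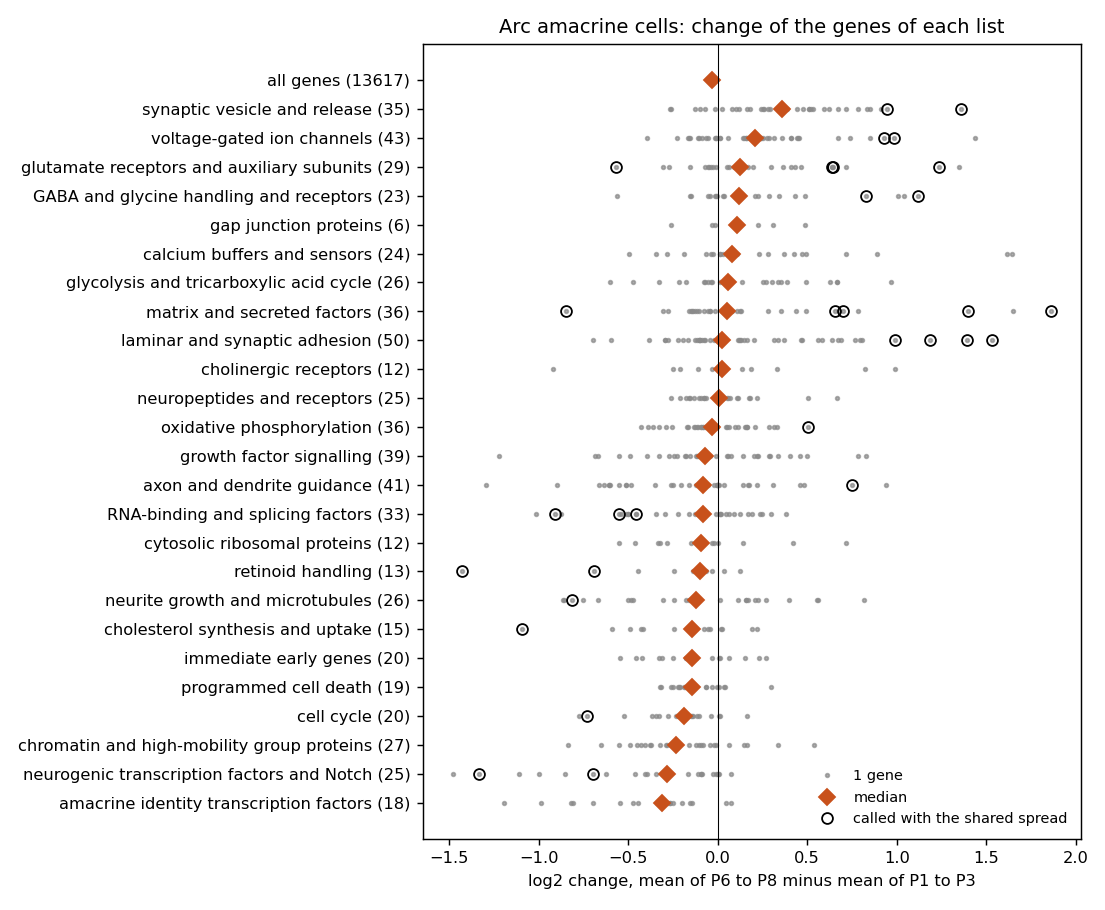
Log2 change of each measured gene of 25 lists (dots), mean of P6 to P8 minus mean of P1 to P3, with the median of each list (diamonds) and circles around genes called with the shared spread. The number of measured genes stands beside each name, and medians run from 0.36 for synaptic vesicle genes down to -0.31 for amacrine transcription factors, with -0.03 for all genes.

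Genes of neuron birth lay lower at P6 to P8, to an extent that depended on P1. Of 25 measured neurogenic and Notch genes, 7 had an unadjusted p under 0.05 with a lower level (5% of all genes did) and none with a higher one (4.28%). The median was -0.29, and -0.09 without P1. Sox4, a transcription factor of newborn neurons, measured 6.29, 5.57, 5.83 and 5.80 at P6 (both), P7 and P8, against 7.91, 7.23 and 6.47 at P1, P2 and P3. The later arrays were all lower, by -1.33 ± 0.31 (SE; limma adjusted p = 0.297 over 7 arrays and 0.0403 with the shared spread). Neurod1, a bHLH factor of amacrine and photoreceptor development, measured 6.54, 6.17, 6.53 and 6.40 at P6 (both), P7 and P8, against 8.68, 6.96 and 6.58 at P1, P2 and P3. Only P1 stood well apart, and the difference of -0.997 became -0.36 without it. Neurod4, its relative, differed by -1.48 and by -0.48 without P1. St18, a zinc finger factor, differed by -1.11 and by -0.18 without P1.

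The 18 measured transcription factors of amacrine identity had the lowest median, -0.31, and -0.30 without P1. Of these, 4 had an unadjusted p under 0.05, all lower (5% of all genes were), and none was called with the shared spread. Barhl2, a homeobox factor of amacrine subtypes, measured 6.36, 6.14, 6.79 and 6.42 at P6 (both), P7 and P8, against 7.57, 7.50 and 6.64 at P1, P2 and P3. The P7 array overlapped P3, and the difference was -0.81 ± 0.25 (SE). Tcf4, a bHLH factor, differed by -1.19, Prox1, a homeobox factor, by -0.99, and Ebf3, a helix-loop-helix factor, by -0.82. Without P1 these differences were -0.45, -0.47 and -0.19.

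Of 20 measured cell cycle genes, 5 had an unadjusted p under 0.05, all lower, where 5% of all genes were lower at that p. Cdk4, a kinase that drives entry into S phase, measured 6.95, 6.78, 7.33 and 7.01 at P6 (both), P7 and P8, against 7.95, 7.92 and 7.36 at P1, P2 and P3. P7 and P3 were 0.03 apart, and the difference was -0.73 ± 0.19 (SE; limma adjusted p = 0.0455 with the shared spread). Ccnd1, cyclin D1, differed by -0.77 and by -0.24 without P1, where it measured 5.96. The replication protein Mcm7 differed by -0.52 and Ccna2, cyclin A2, by -0.37, both from a P1 to P3 mean near background.

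Markers of other cells were read beside these groups, but the lists share genes and are not separate. The progenitor list holds Hes1, Hes5 and Atoh7 of the neurogenic list and Ccnd1, Mki67 and Top2a of the cell cycle list. Prox1 is in both the horizontal cell list and the amacrine identity list. None of the 11 measured progenitor markers had a change above 0, where 5641 of 13617 genes did. An unadjusted p under 0.05 was found for 3, all lower, where 5% of all genes were. The mean level of the 11 was 3.46 to 3.67 at P6 to P8, against 4.19, 3.76 and 3.67 at P1, P2 and P3. The mean level of 8 horizontal cell markers was 3.40 to 3.64 at P6 to P8, against 4.30, 3.70 and 3.64 at P1, P2 and P3. Of these, Onecut2, a factor of horizontal cells, was called lower with the shared spread, at -0.76. The part of progenitor or other cells in the lower neurogenic, cell cycle and transcription factor genes was not tested. In sorted pools, fewer cells of a type and less RNA per cell cannot be told apart. Rod, cone, bipolar, microglial and vessel markers had mean levels below background in every one of the 7 arrays. The medians of all genes in these arrays, 3.50 to 3.55, lay below that mark too, so such a mean does not show absence. Single members stood above it. Prkca of the bipolar list had means of 5.81 at P6 to P8 and 4.67 at P1 to P3, and Kcnj8 of the vessel list 3.91 and 3.36. A change above 0 was found for 5 of 11 bipolar and 3 of 13 vessel markers. Muller glial markers ran from 3.42 to 3.76 at P6 to P8 and from 3.40 to 3.56 at P1 to P3. Astrocyte markers, which include Aldoc, ran from 3.31 to 3.54 at P6 to P8 and from 3.19 to 3.42 at P1 to P3.

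Genes of growth and of the cytoskeleton were mixed. Of 26 measured genes of neurite growth and microtubules, 1 had an unadjusted p under 0.05 with a higher level and 8 with a lower one. Tubb5, a beta-tubulin, measured 7.22, 6.93, 6.97 and 6.92 at P6 (both), P7 and P8, against 8.35, 7.86 and 7.39 at P1, P2 and P3. The groups did not overlap, and the difference was -0.86 ± 0.21 (SE; limma adjusted p = 0.318). Tmsb4x, an actin-binding thymosin, differed by -0.86 as well, and Map1b, a microtubule-associated protein, by 0.81, and by 0.44 without P1. Of 41 guidance genes, 3 had an unadjusted p under 0.05 with a higher level (4.28% of all genes did) and 9 with a lower one (5%). Sema6a, a semaphorin, measured 8.32, 9.01, 8.55 and 8.24 at P6 (both), P7 and P8, against 6.53, 7.93 and 8.31 at P1, P2 and P3. P3 lay above the P8 array, and the difference of 0.94 became 0.41 without P1. Its partner Plxna2, a plexin receptor, differed by -0.90, and by -0.21 without P1, where it measured 7.63. Epha7, an ephrin receptor, differed by 0.75 and was called with the shared spread.

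Of 33 measured RNA-binding and splicing genes, 9 had an unadjusted p under 0.05 with a lower level and 1 with a higher one. With the shared spread 3 were called lower. Over all genes these shares were 5%, 4.28% and 0.367%. The median of the list was -0.08, beside -0.03 over all genes, and 0.04 without P1. Celf3, a neuronal splicing regulator, measured 7.73, 6.92, 7.68 and 7.42 at P6 (both), P7 and P8, against 8.74, 8.40 and 7.90 at P1, P2 and P3. It differed by -0.91 ± 0.25 (SE; limma adjusted p = 0.0483 with the shared spread). Msi1, the RNA-binding protein musashi 1, was called too, at -0.55, while Qk and Khdrbs3, both splicing regulators, differed by -1.02 and -0.88, and Qk by -0.51 without P1. Of 27 chromatin genes, 4 had an unadjusted p under 0.05 with a lower level and 1 with a higher one, at a median of -0.23, and -0.13 without P1. The largest differences there were Chd7, a nucleosome remodeller, at -0.84, the histone H2ax at -0.65, Actl6a, a subunit of progenitor BAF complexes, at -0.55 (-0.23 without P1), and the nucleosome-binding Hmgn3 at 0.54.

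Of 15 cholesterol genes, 4 had an unadjusted p under 0.05, all lower, where 5% of all genes were. Fdft1, squalene synthase, measured 5.60, 5.22, 5.99 and 5.29 at P6 (both), P7 and P8, against 6.12, 6.94 and 6.80 at P1, P2 and P3. The P7 and P1 arrays were 0.12 apart, and the difference was -1.09 ± 0.25 (SE; limma adjusted p = 0.0455 with the shared spread). The further enzymes Cyp51, Sqle and Dhcr7 differed by -0.59, -0.49 and -0.43. Of 13 retinoid genes, 3 had an unadjusted p under 0.05, all lower, among them Crabp1 and Nr2f2, an orphan nuclear receptor at -0.69 that was called with the shared spread. Aldh1a1, which makes retinoic acid, was below background throughout, with means of 2.61 at P6 to P8 and 2.85 at P1 to P3.

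Some groups gave little. None of 25 neuropeptide genes, 1 of 20 immediate early genes (Egr1, a zinc finger factor, -0.46) and 1 of 19 programmed cell death genes had an unadjusted p under 0.05. Tac1, the precursor of substance P, measured 6.11, 7.19, 4.99 and 6.20 at P6 (both), P7 and P8, against 4.08, 5.90 and 6.40 at P1, P2 and P3. Nr4a2, a nuclear receptor of the immediate early list, measured 6.95, 6.76, 6.19 and 6.40 at P6 (both), P7 and P8, against 5.82, 7.77 and 7.77 at P1, P2 and P3. P1 lay below and P2 and P3 above all later arrays, and the difference was -0.55, and -1.19 without P1. Socs2, a suppressor of cytokine signalling, measured 4.92, 4.18, 3.04 and 4.33 at P6 (both), P7 and P8, against 7.04, 6.57 and 2.41 at P1, P2 and P3. In that gene P3 lay under every later array, and the difference of -1.22 had an SE of 0.99 and was -0.37 without P1. Of 39 growth factor signalling genes, 2 had an unadjusted p under 0.05 with a higher level and 6 with a lower one. Over all genes 4.28% were higher and 5% lower at that p, so the lower side of this list exceeded that share. The fibroblast growth factor genes Fgf12, Fgf14 and Fgf9 differed by 0.83, 0.78 and -0.69, each with overlapping groups. Without P1 Fgf12 and Fgf14 differed by 0.28 and 0.39. Of 12 measured ribosomal protein genes, 1 had such a p in each direction.

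The arrays of P4 and P5 did not enter the rules that chose these genes. For the 25 genes at least 2-fold higher with no overlap, the P4 array lay past the midpoint between the group means in 22 and the P5 array in 25. The median position was 89.9% of the way to the P6 to P8 mean at P4 and 99.2% at P5. For the 11 lower genes the counts were 5 and 8, and the positions 44.0% and 80.9%. Examples are Sparcl1, with 5.46 and 5.50, and Rnd3, with 6.86 and 6.48 at P4 and P5. Each day is 1 array, and the P4 and P5 arrays had lower medians (3.44 and 3.43) than the 7, so no test was made of the order.

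The 12 arrays of P9 to P20 gave a separate test of whether genes went on in the same direction. A linear trend over these days called 762 genes higher with age (5.6%) and 495 lower (3.64%) by limma, 1257 in all and 829 without the P9 array. Of the 36 genes with a first-week difference of at least 2-fold and no overlap, 30 (83.3%) were called in the same direction and none in the other, which made 2.39% of the later calls. Olfm3 rose by 2.84 between P9 and P20, Sparcl1 by 2.44, Snap25 by 1.44 and Gad1 by 1.52 (limma adjusted p of 2.55e-05, 1.63e-05, 2.06e-06 and 1.35e-05). Crabp1 fell by 2.77, Cnn3 by 2.30, Rnd3 by 2.36 and Sox4 by 2.15 (limma adjusted p of 2.05e-05, 4.63e-05, 0.000123 and 7.27e-05).

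The 6 of the 36 that were not called later were Cntn1, Ralyl, Syt4, Carhsp1, Fdft1 and H2az2, named after their values were seen. Cntn1, higher by 1.19 in the first week, had a later change of -0.21 (limma adjusted p = 0.584), and Fdft1 had -0.22 (0.639). Fdft1 did not stay low, with 6.15 to 7.05 over P9 to P20. Its means were 5.53 at P6 to P8 and 6.62 at P1 to P3. Of the 124 genes called with the shared spread, 88 (71.0%) were called in the same direction later and none in the other, or 7.0% of the later calls. That fit takes its spread partly from the later arrays, so these calls are not separate from them. Of 30 genes named by rule, 25 were called in the same direction later. Mdga2, at 0.17 (limma adjusted p = 0.644), was an exception among the higher ones, and Acly, at -0.21 (0.477), among the lower ones. The P9 to P20 median of Acly, 6.32, lay between its means of 6.01 at P6 to P8 and 6.68 at P1 to P3. Scnm1, not called later either, ran from 5.28 to 6.37 over P9 to P20. Its means were 5.34 at P6 to P8 and 5.94 at P1 to P3.

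**Figure D4:**
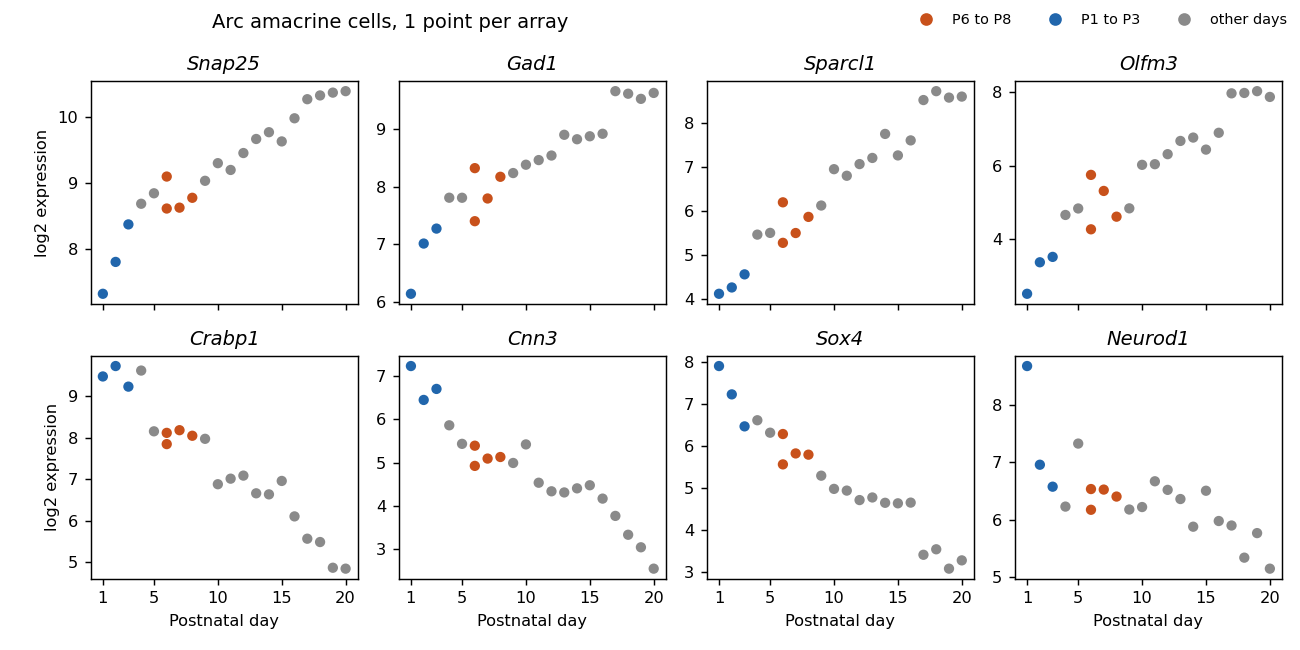
Log2 expression by postnatal day for 8 genes, 1 point per Arc array, with the arrays of P6 to P8 and P1 to P3 coloured and the other days grey. Snap25, Gad1, Sparcl1 and Olfm3 go on higher to P20 and Crabp1, Cnn3 and Sox4 lower, while in Neurod1 the P1 array stands alone at 8.68.

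Whether the pace differed between the first 8 days and later ones was tested directly, as a change of slope at day 8 over 21 arrays. No gene was called by limma, with 308 (2.26%) at an unadjusted p under 0.05 and a lowest adjusted p of 1.00. No gene here can be called particular to the first week on that test. It fits joined straight lines, so it can miss a difference that was gone again soon after P8, as in Fdft1.

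Starburst cells, a cholinergic amacrine type, were measured in another line at P18 and P3. Of the 36 genes, 18 (50%) were called in the same direction there and none in the other, where 4.76% of all genes were called higher and 3.89% lower, and the 18 made 1.53% of the starburst calls. Sparcl1 differed by 6.10 between P18 and P3, Kcnab1 by 3.34, Gria3 by 3.22 and Sox4 by -3.58. Crabp1 differed by -0.95 (limma adjusted p = 0.0602). Pdgfd measured means of 2.32 at P18 and 2.32 at P3 and Olfm3 2.67 and 2.38, below the olfactory receptor mark of 3.996 at P18 and 4.005 at P3, so no change of either could be read there. Gabra3 and Neto2, higher by 1.01 and 0.72 in Arc cells, were called lower in starburst cells, at -1.54 and -1.40. Sox4, Cnn3, Gabra3 and Neto2 had P18 means below that mark, and Gria3 a P3 mean below it, so their sizes are lower limits. The ages, line, fluorophore and batch labels differ between the cell types, so the difference between them was not tested.

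**Figure D5:**
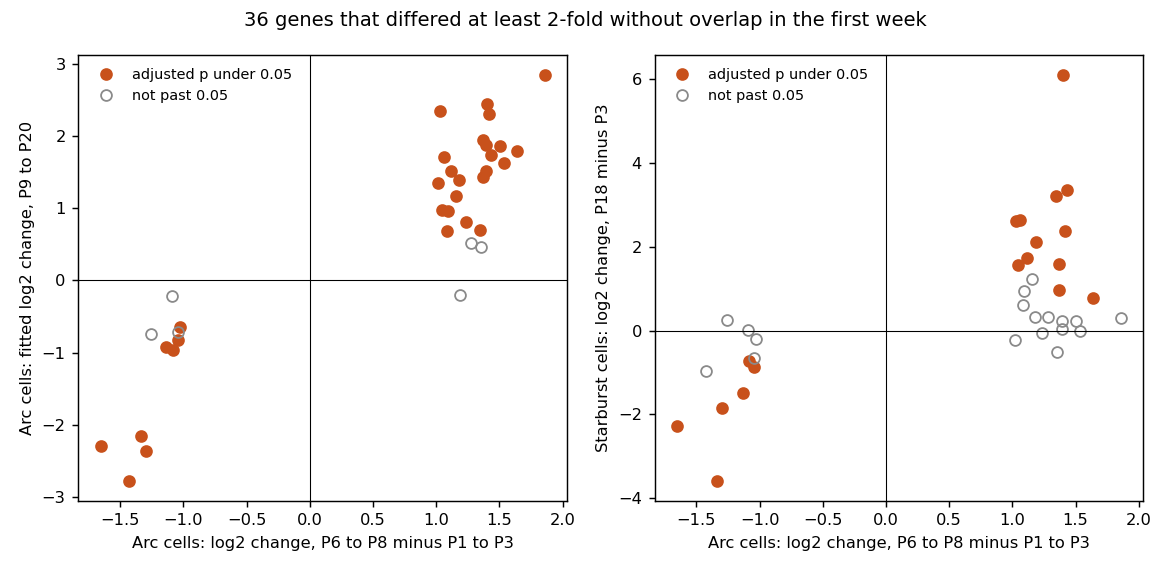
The 36 genes that differed at least 2-fold without overlap, with the first-week log2 change of Arc cells on the horizontal axis. The vertical axis is the fitted change from P9 to P20 in Arc cells (left) or the change of starburst cells between P18 and P3 (right), and filled points passed an adjusted p of 0.05. On the left 30 of 36 are filled and on the right 18, each in the same direction as in the first week.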

How the data were processed

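RNA of sorted retinal cells was hybridised to 1-colour arrays, 22 of Arc and 6 of starburst amacrine cells, and the deposited values were on a log2 scale. The authors used R 2.11.1 and RMA with build mm8, per the submitters' processing notes. Which arrays were normalized together is not given in the sources used here. Of 15170 transcript clusters, 13720 had 1 gene symbol. For 102 genes with several clusters the one with the highest mean was used, which left 13617 genes with no filter on low values. GEO's platform annotation gave the symbols. The number of arrays limits the precision.

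Genes were tested two-sided in R 4.3.3 by limma 3.58.1, with a mean-variance trend in eBayes and p-values adjusted by Benjamini-Hochberg over all genes at 0.05. The code was tested on simulated data. A first-week fit used 7 arrays. The shared-spread fit used 21, the later trend 12, the change of slope 21 and the starburst comparison 6. Named genes were the 15 per direction with the lowest unadjusted p among those without overlap, with a mean above the median gene and no placeholder symbol, because none passed the threshold. Up to 4 members per list with the largest differences were named, and some but not all of those called with the shared spread. Members, lists and tests were chosen with earlier results of these data known. The alternatives tried were other normalizations, filters, variance priors and day groupings, and leaving out single arrays. The P43 array was not used.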

Additional observations from a re-analysis of the deposited data

Results flagged for a closer look

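In 8 of 127 genes examined, 1 of the 4 arrays of P6 to P8 lay far from the other 3, by Dixon's test at its 95% critical value. Chance alone gives about 1 such case in 20 groups. The second P6 array was high for Vsnl1 (7.33, the others 6.17 to 6.18) and low for Acly (5.83, the others 6.07 to 6.08) and Lhx2, a homeobox factor of retinal progenitors (3.92, the others 4.49 to 4.55). The first P6 array was low for Nsf (6.06, the others 6.37 to 6.43) and high for Tubb5 (7.22, the others 6.92 to 6.97). The P8 array was high for Glul, the glutamine synthetase of Muller glia (4.87, the others 3.13 to 3.27), and for Vps11 (5.52, the others 5.39 to 5.40), and low for Ccnd1 (3.53, the others 4.28 to 4.36). The reason for these single values was not tested.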

How the results depend on the processing

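The first-week count of 0 genes became 1 after quantile normalization and 1 after cyclic loess (Crabp1 both times), 4 among genes above the median mean (Cnn3, Crabp1, Inpp4b and Pdgfd) and 3 with a linear term in days over P1 to P8 (Hpgd, Cobl and Cnn3). It was 124 with the spread shared over 21 arrays. Leaving out 1 of the 7 arrays gave 0 to 4 genes: 4 without P3 (Crabp1, Galnt13, Pdgfd and Trank1) and 1 without the second P6 array (Aldh1a7). Median centring, array weights, robust or untrended priors, averaging the P6 arrays and averaging clusters gave 0. With the shared spread the count was 242 among genes above the median mean, where fewer genes were tested, and 2 to 507 when 1 array was left out. The later trend gave 829 genes without P9 and up to 1271 without another array. The change of slope gave 0 genes under its alternatives. The starburst comparison gave 1060 genes with a replicate block, against 1178 without it, and 810 to 908 when 1 array was left out. The replicate numbers did not pair its arrays: same-numbered ones deviated from their group means with r of 0.046, 0.018 and -0.044, and 2 of 6 correlated best with their own number. None of the genes named with a difference changed direction under an alternative. The causes were not tested. Signals near background limit low genes, and 4 and 3 arrays limit the rest.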
